A study of Mus musculus with 11 samples.

Results

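The clustered protocadherins are a family of cell adhesion genes that lie in 3 neighbouring arrays on mouse chromosome 18, the alpha, beta and gamma clusters. The genes examined were those annotated as protein-coding on this chromosome with a symbol that starts with *Pcdha*, *Pcdhb*, *Pcdhga*, *Pcdhgb* or *Pcdhgc* followed by a number or, in the alpha cluster, by c and a number. The rule reads symbol, chromosome and annotation, although the family was picked for study with earlier results of these data known. It gave 57 of the 21755 protein-coding genes on chromosomes 1 to 19 and X, with 14 in the alpha cluster, 22 in the beta cluster and 21 in the gamma cluster. The alpha genes comprised 12 ordinary members and the C-type genes *Pcdhac1* and *Pcdhac2*. The gamma genes comprised 12 of the A type, 6 of the B type and the C-type genes *Pcdhgc3*, *Pcdhgc4* and *Pcdhgc5*. The annotation gives 2 alpha genes the symbol *Pcdha11*, and both were kept. *Pcdhgb8*, annotated as a polymorphic pseudogene, was left out by the rule and none of its window was under a peak.

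Clustered protocadherins are cadherin-related membrane proteins through which neurons recognise each other and their own processes. In the alpha and gamma clusters each gene has its own promoter and its own long first exon, which encodes the extracellular and transmembrane parts and is spliced to a set of short constant exons shared by the whole cluster, whereas the beta genes have no constant exons and each is a single exon. Most members are switched on in a few, seemingly random, combinations per neuron, while the C-type genes tend to be expressed more uniformly across neurons of a type. H3K27me3, the trimethylation of lysine 27 of histone H3, is laid down by Polycomb complexes and is typical of repressed developmental genes.

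H3K27me3 was profiled by CUT&Tag, in which an antibody directs a transposase to chromatin that carries the modification, in the medial (MGE), caudal (CGE) and lateral (LGE) ganglionic eminences and the somatosensory cortex (CTX) of embryonic forebrain. All 11 samples came from wild-type C57BL/6J mice, with 2 samples of MGE and 3 each of CGE, LGE and CTX, and region was the only labelled difference between the groups. The groups also differed in number of samples and in sequencing depth. Where a region has 3 samples, the titles give 2 of them 1 replicate number, and these may be libraries of 1 biological replicate. The tissue was taken at embryonic day 12.5 per the methods, whereas the protocol in the labels, which also serves other assays, names days 12.5 and 14.5. Tissue of several embryos was combined, and the protocol also speaks of nuclei from the 4 regions mixed equally, whereas each sample carries the name of a single region. Nuclei of whole tissue were used, so each list averages over progenitors and neurons, and a modification in fewer cells cannot be told apart from less of it in each cell.

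Each region is represented by 1 list of broad peaks that the authors called after merging its samples. Nothing below therefore has a replicate error or a test, and how far animals of 1 region differ from each other is unknown. The lists held between 15384 (MGE) and 19196 (CGE) peaks and gave no read counts, so the depth behind a single peak is unknown. The library depths in the methods, added up per region, rise from MGE through LGE and CTX to CGE, the same order as the number of peaks, and the part of depth in the differences between lists was not tested. A base outside the peaks is one at which no peak was called, not one shown to lack the modification. Of the 8 genes used to check the labelled regions, the cortical genes *Emx1*, *Neurog2* and *Lhx2* each had the least coverage of the 2 kb either side of the 5′ end in CTX. For *Lhx2* this rested on 29.8% in CTX against 31.35% in LGE. *Lhx6*, a gene of the MGE lineage, had the least in MGE. *Dlx2*, a ganglionic eminence gene, was also lowest in MGE, at 16.4%. It did not set CGE (44.8%) or LGE (41.4%) apart from CTX (41.65%). The others did not separate the labels, since *Nkx2-1*, the defining gene of the MGE, was covered over 100% of this window in every list including MGE, *Nr2f2* stood at 27.3% in CGE, 27.4% in LGE and 27.6% in CTX against 59.7% in MGE, and *Neurod2*, a gene of cortical neurons, was lowest in CGE at 47.7% against 54.5% in CTX.

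The first question was how much of each cluster lay under peaks. The alpha cluster, from the first 5′ end to the last 3′ end of its genes, spans 257 kb (chromosome 18, 36930184 to 37187661, mm10, counted from 1), and held 2 peaks in every list, which covered 1.26% of it in MGE, 1.54% in LGE, 2.00% in CGE and 1.65% in CTX. The beta cluster spans 260 kb (37264938 to 37524479) and held no peak in any list. The gamma cluster spans 180 kb (37661793 to 37841873) and held 5 peaks in MGE, 5 in LGE, 6 in CGE and 6 in CTX, which covered 4.61%, 5.07%, 4.74% and 5.28% of it in that order. For comparison, peaks covered between 0.801% (MGE) and 1.03% (CGE) of chromosome 18 as a whole, and between 0.931% (MGE) and 1.25% (CGE) of the genome. In the full lists the gamma cluster was thus covered several times more densely than its chromosome and the beta cluster not at all. First exons made up 30.6% of the gamma cluster, so it is not on the same footing as a whole chromosome. The intervals of 77.3 kb between alpha and beta and 137 kb between beta and gamma were also free of peaks. When the other lists were limited to their strongest peaks with as many covered bases as MGE, the gamma share was 1.45% in CGE and 1.11% in CTX. It stayed at 5.07% in LGE. The shares of chromosome 18 and of the genome given above are those of the full lists. Lists limited in this way cover about as much of the genome as MGE, 0.931%.

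**Figure D1:**
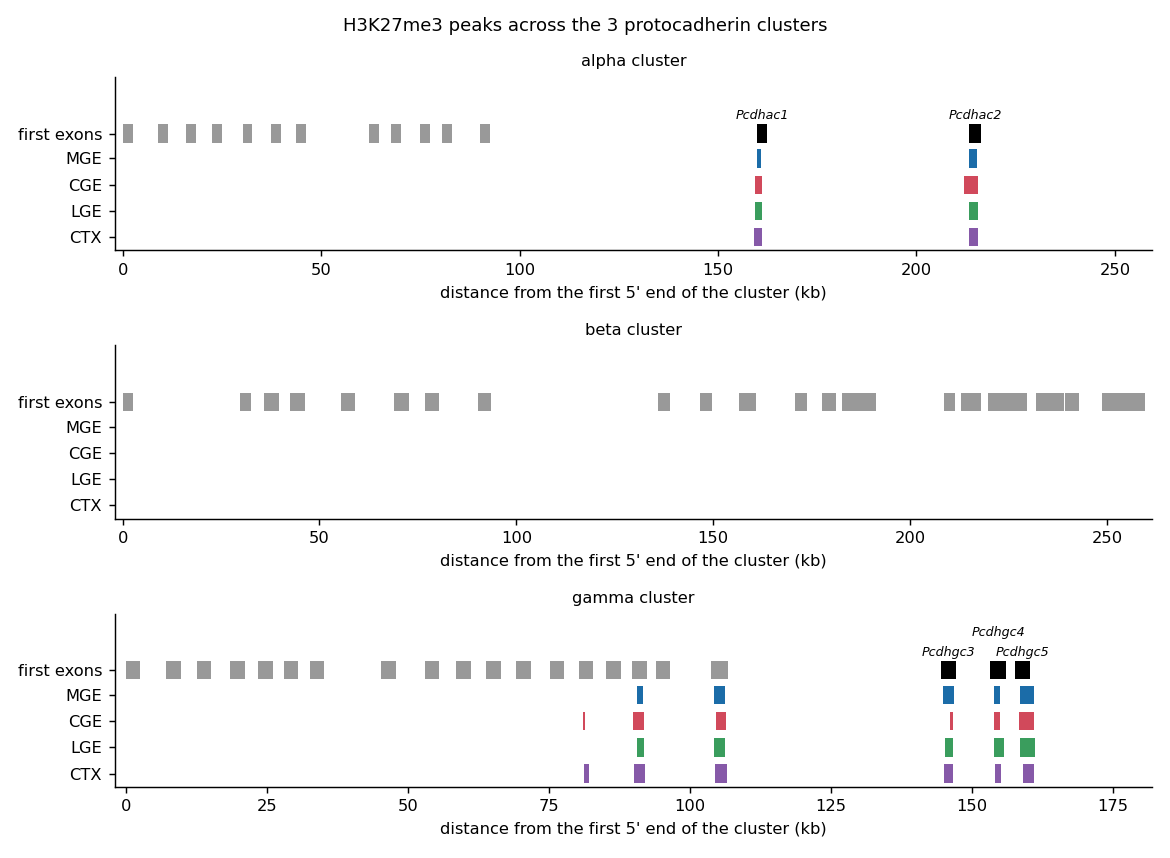
Positions of H3K27me3 peaks (coloured bars, 1 row per list) and of the first exons of the protocadherin genes (grey, C-type genes in black) along the 3 clusters. The horizontal axes give the distance from the first 5′ end of each cluster in kb and are drawn to the cluster's own length; the alpha cluster has 2 covered places at its C-type genes, the beta cluster none, and the gamma cluster 6 near its end.

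The 30 peaks of the 4 lists fell at 8 places, and each of these lay in the first exon of a different gene. They were the first exons of all 5 C-type genes, *Pcdhac1*, *Pcdhac2*, *Pcdhgc3*, *Pcdhgc4* and *Pcdhgc5*, and of *Pcdhgb6*, *Pcdhgb7* and *Pcdhga12* in the gamma cluster. At 7 of the 8 places all 4 lists had a peak, and the exception, *Pcdhgb6*, had one in CGE and CTX. Each of the 30 peaks had more than 50% of its length inside the first exon, the lowest share being 60.7% (*Pcdhgc5* in CTX) and the median 100%. First exons made up 26.2% of the bases of the 3 clusters and held 92.7% of the covered bases in MGE, 89.2% in LGE, 81.2% in CGE and 88.4% in CTX. The constant exons, which every alpha or every gamma transcript shares, had no covered base in any list. They hold 4979 bases, 0.714% of the 3 clusters, so few covered bases could fall in them.

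Coverage of single genes was measured over the window of 2 kb either side of the annotated 5′ end. A covered base in this window was found for 7 of the 57 genes in MGE, 8 in LGE, 9 in CGE and 9 in CTX. Among all protein-coding genes the share was 29.1% in MGE, 30.2% in LGE, 30.3% in CGE and 32.5% in CTX, so the protocadherins, at 12.3%, 14.04%, 15.8% and 15.8%, stood below the background in each list. Counted over all lists, 9 genes had a covered base in at least 1 list, against 39.1% of all genes, and 7 had one in all 4 lists, against 23.4%. The other 48 genes had none in any list, and they were the 12 ordinary alpha genes, the 22 beta genes and 14 gamma genes. No filter was applied, so these counts take in every gene of the family.

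The C-type genes and the rest differed in these counts. All 5 C-type genes had a covered base in every list, against 2 of the 52 other genes in MGE, 3 in LGE, 4 in CGE and 4 in CTX. In lists limited to the covered bases of MGE, the genes left with a covered base in CGE and CTX were *Pcdhac1*, *Pcdhac2* and *Pcdhgc5*, 3 of the 5 C-type genes and none of the others. The LGE list limited in this way kept its 8 genes, among them *Pcdhgb7*, *Pcdhga11* and *Pcdhga12*. Mean coverage of the C-type windows, in the full lists, was 35.0% in MGE, 38.1% in LGE, 38.7% in CGE and 35.2% in CTX. The mean over the other 52 genes was 1.14%, 1.32%, 1.68% and 2.00% in the same order. With at least 50% of the window covered, the family counted 1 gene in MGE (background 9.76% of all genes), 1 in LGE (10.2%), 1 in CGE (12.3%) and 2 in CTX (10.9%), and these were *Pcdhac2* in each list and *Pcdhac1* in CTX. *Pcdhac2* was the only member that reached 50% in all 4 lists, which 7.54% of all genes did. At a level of 25% of the window, 5 members counted in MGE (18.9% of all genes), 7 in LGE (19.8%), 6 in CGE (21.9%) and 5 in CTX (20.3%).

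**Figure D2:**
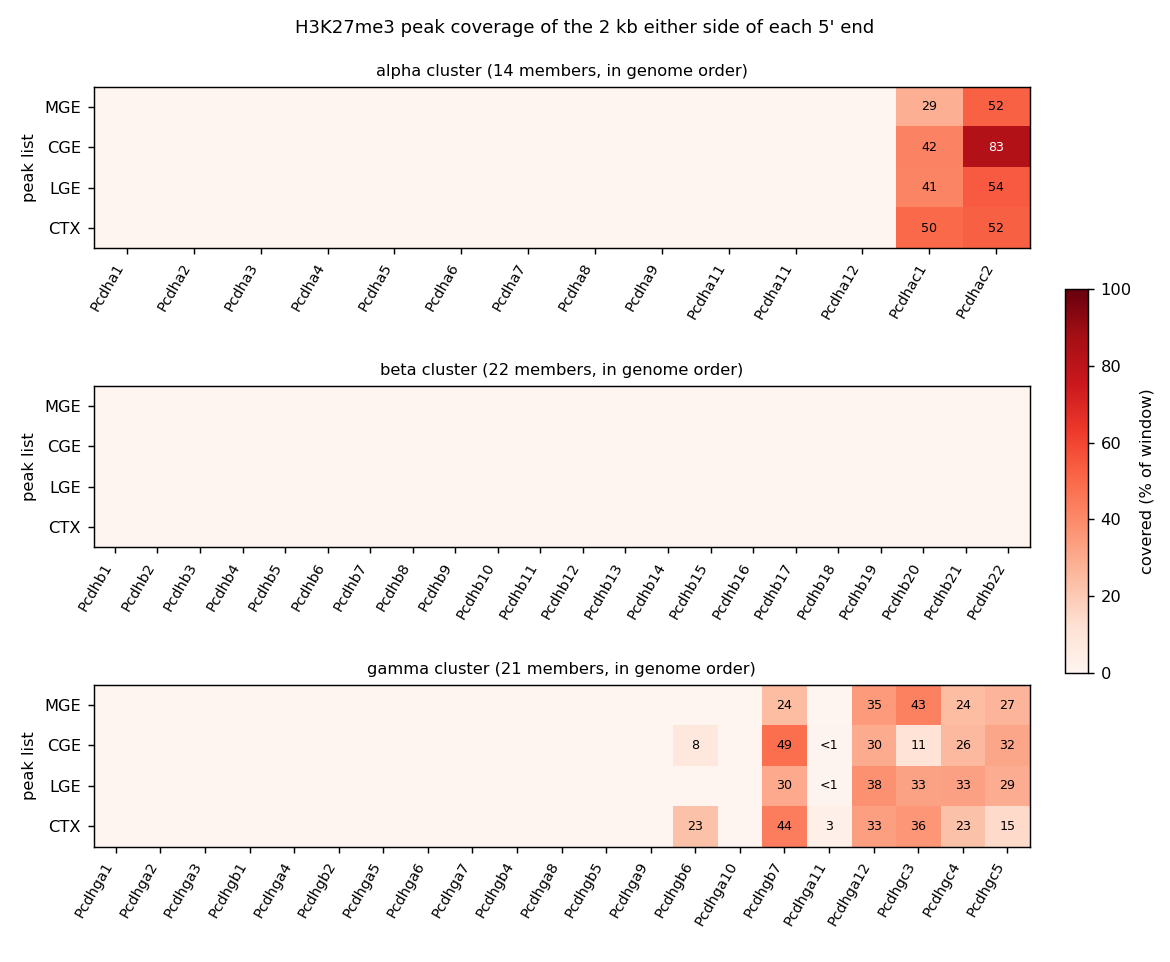
Percentage of the 4 kb window around the 5′ end of each protocadherin gene that lay under H3K27me3 peaks, by list (rows) and gene in genome order (columns), with colour from 0 to 100% and the value printed where it is above 0. Coloured cells stand at the last 2 alpha genes and at 7 genes at the end of the gamma cluster, and the beta cluster is blank.

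*Pcdhac2*, which takes part in the even spacing of serotonergic axons, had the most covered window of the family. Its window was covered over 52.3% in MGE, 54.2% in LGE, 83.3% in CGE and 52.4% in CTX. The MGE, LGE and CTX values lay within 2 percentage points of each other and CGE stood apart. Each list's peak ran over the 5′ end, from 37143406 to 37145495 in MGE and from 37142172 to 37145629 in CGE. In MGE, LGE and CTX they began 97, 169 and 97 bases before the 5′ end, whereas the CGE peak began 1331 bases before it. The 2 kb upstream of the gene was accordingly covered over 66.6% in CGE against 4.85% in MGE, 8.45% in LGE and 4.85% in CTX. Coverage of the first exon was much the same in all lists, at 65.8% in MGE, 70.2% in LGE, 70.2% in CGE and 70.8% in CTX.

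*Pcdhac1*, the other C-type gene of the alpha cluster, lies 53.5 kb before *Pcdhac2*, measured between their 5′ ends. Its window was covered over 28.9% in MGE, 41.5% in LGE, 42.3% in CGE and 50.1% in CTX. MGE was lowest and CTX highest, and the lists differed more before the 5′ end than after it. The 2 kb before the 5′ end was covered over 1.75% in MGE, 20.1% in LGE, 26.0% in CGE and 35.8% in CTX, while the first exon was covered over 43.8%, 49.2%, 45.8% and 50.4%. Each list's peak ran over the 5′ end and began between 35 (MGE) and 716 (CTX) bases before it. *Pcdhac1* and *Pcdhac2* were the only members with a peak over the 5′ end, which 8 of the 30 peaks covered.

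The C-type genes of the gamma cluster had their peaks inside the gene. *Pcdhgc3*, which promotes the branching of dendrites, varied most between lists. Its window was covered over 42.9% in MGE, 32.6% in LGE, 10.7% in CGE and 36.1% in CTX, and its first exon over 79.8%, 56.4%, 21.7% and 61.2%. CGE was lowest on both measures, with a peak 556 bases wide against 2049 bases in MGE, 1449 in LGE and 1572 in CTX. The CGE peak lay wholly within the stretch covered in the other 3 lists.

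*Pcdhgc4*, which neurons need for their survival in development, had its window covered over 24.3% in MGE, 33.0% in LGE, 25.6% in CGE and 22.8% in CTX. Its first exon was covered over 60.4% in LGE and between 31.4% (CTX) and 35.2% (CGE) in the other lists. The LGE peak was 1755 bases wide and the others between 911 and 1024 bases. LGE thus stood apart by the width of its peak, which began 679 bases after the 5′ end and overlapped those of the other lists.

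*Pcdhgc5*, the last gene of the gamma array, had its window covered over 26.7% in MGE, 29.1% in LGE, 31.5% in CGE and 14.6% in CTX, with CTX lowest. The first exon was covered over 64.5%, 68.0%, 71.8% and 46.0% in that order. Its peaks ended between 3338 and 3467 bases after the 5′ end and were the only ones to run on past the end of the first exon, into the following intron. Counted over the first exon, the mean of the 5 C-type genes was 57.5% in MGE, 60.9% in LGE, 48.9% in CGE and 52.0% in CTX.

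Outside the C-type genes, the covered first exons were those of *Pcdhgb6*, *Pcdhgb7* and *Pcdhga12*, all in the later part of the gamma array. The window of *Pcdhga12*, the last gene before the C-type genes, was covered over 34.9% in MGE, 37.9% in LGE, 29.95% in CGE and 33.5% in CTX. Its first exon was covered over 64.0%, 65.7%, 64.7% and 70.8%, the narrowest range over the lists among the gamma genes with a peak. The window of *Pcdhgb7* was covered over 24.5% in MGE, 30.2% in LGE, 48.8% in CGE and 44.1% in CTX, and its first exon over 37.8%, 52.4%, 81.0% and 78.3%. For this gene CGE and CTX, the longest lists, were high and MGE and LGE low. This order did not hold in lists limited to the covered bases of MGE, where *Pcdhgb7* had a covered base in MGE and LGE and none in CGE or CTX.

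*Pcdhgb6* had a window covered over 8.38% in CGE and 22.9% in CTX and not at all in MGE or LGE. Both of its peaks were lost in lists limited to the covered bases of MGE and at a q-value under 0.001. The CGE peak, 335 bases wide, was the narrowest of the 30, and no base of this exon was covered in all 4 lists. *Pcdhga11* had 0.500% of its window covered in CGE, 0.500% in LGE and 3.45% in CTX. These bases came from the end of the *Pcdhgb7* peak, which reached into the 2 kb before the 5′ end of *Pcdhga11*, and the first exon of *Pcdhga11* had no covered base.

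**Figure D3:**
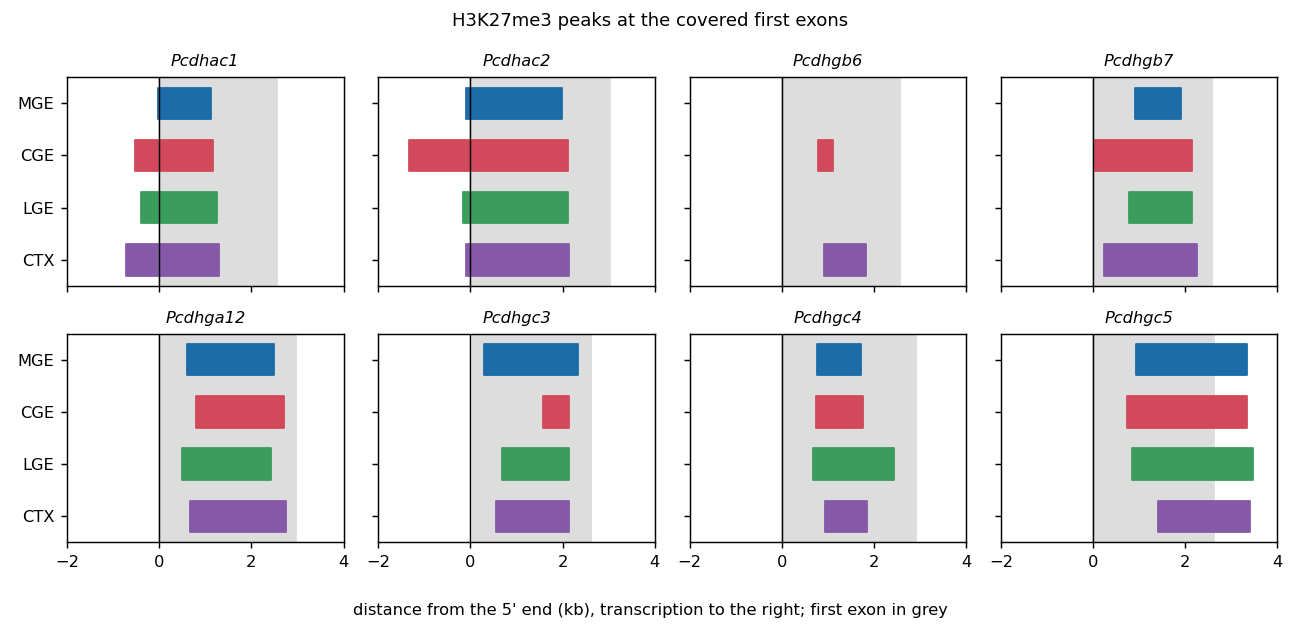
Extent of the H3K27me3 peak of each list at the 8 covered first exons, on a scale in kb from the annotated 5′ end (black line), with transcription to the right and the first exon in grey. The peaks of *Pcdhac1* and *Pcdhac2* run over the 5′ end, and those of the 6 gamma genes begin between 50 and 1572 bases after it.

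The position of the peaks relative to the 5′ end separated the 2 covered alpha genes from the 6 gamma genes with a covered first exon. The 8 alpha peaks, those of *Pcdhac1* and *Pcdhac2* over the 4 lists, began between 35 and 1331 bases before the 5′ end. The 22 peaks of the 6 gamma genes began between 50 (*Pcdhgb7* in CGE) and 1572 bases (*Pcdhgc3* in CGE) after it. When the 2 kb upstream was taken alone, 2 members had a covered base in MGE (background 22.6%), 3 in LGE (24.2%), 3 in CGE (24.7%) and 3 in CTX (26.2%), and the third of these was *Pcdhga11* with the edge of its neighbour's peak. At least 50% of the upstream 2 kb was covered for 1 member, *Pcdhac2* in CGE (8.33% of all genes), and for 0 members in MGE (6.47%), LGE (6.52%) and CTX (7.14%). Over the 4 lists, 3 members had a covered upstream base in any list (32.8% of all genes) and 2 in all of them (17.5%), and 1 member, *Pcdhac2*, differed there by 50 percentage points or more between its highest and lowest list (3.01%). Counts over first exons were 7 in MGE (22.9% of all genes), 7 in LGE (24.2%), 8 in CGE (23.8%) and 8 in CTX (26.4%) for any covered base. For at least 50% of the first exon they were 4 (20%), 6 (21.5%), 4 (21.4%) and 5 (23.3%). A covered base of the first exon was found in any list for 8 members (32.3% of all genes) and in all 4 lists for 7 (17.8%). The first exons of the family are long, with a median of 2611 bases against 219 bases over all genes, so the share of a first exon is not on the same footing in the family and in the background.

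The covered genes lay towards the end of the alpha and gamma arrays. In the alpha cluster the 12 ordinary genes preceded *Pcdhac1* and had no peak over 159 kb. In the gamma cluster the first 13 genes in genome order had no covered base, and from *Pcdhgb6* onwards 6 of 8 first exons were covered, the others being *Pcdhga10* and *Pcdhga11*. The 5′ ends of these covered gamma genes spanned 77.4 kb. Between the end of the *Pcdhac2* peaks and the start of the *Pcdhgb6* peaks lay 597 kb without a covered base in any list (37145646 to 37742879), which held 35 whole first exons of the family. Of the 28383 stretches between covered bases on the chromosomes analysed, 709 (2.50%) were at least as long, and the median was 18815 bases. This share counts stretches and not bases, so it is not the share of the genome that lies in stretches of this length.

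The 4 regions were then compared over the family. No member's window differed by 50 percentage points or more between its highest and lowest list, against 1.53% of all genes, and 2 members differed by 25 points or more, against 9% of all genes. Only *Pcdhac1* and *Pcdhac2* reached 50% of the window in any list, so no other member could differ by 50 points. The largest differences were 32.2 points for *Pcdhgc3* (MGE over CGE) and 31.0 points for *Pcdhac2* (CGE over MGE). Over first exons 1 member differed by 50 points or more, *Pcdhgc3*, against 13.5% of all genes. The Jaccard index of a pair of lists, which divides the bases under peaks of both by those under peaks of at least 1, was highest for MGE and LGE at 79.0% within the clusters and lowest for MGE and CGE at 64.1%. Over the whole genome the same index was 57.1% for MGE and LGE and 54.9% for MGE and CGE, and the lowest pair there, MGE and CTX at 46.5%, stood at 69.2% in the clusters. For all 6 pairs the index was higher in the clusters than in the genome, with the clusters resting on 7 or 8 peaks per list.

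No list was highest at every covered gene. MGE had the highest window coverage at *Pcdhgc3*, CGE at *Pcdhac2*, *Pcdhgb7* and *Pcdhgc5*, LGE at *Pcdhga12* and *Pcdhgc4*, and CTX at *Pcdhac1*, *Pcdhgb6* and *Pcdhga11*. The stretch covered in all 4 lists was 2090 bases of 3474 at *Pcdhac2*, 1155 of 2005 at *Pcdhac1*, 1628 of 2271 at *Pcdhga12*, 1923 of 2728 at *Pcdhgc5*, 793 of 1755 at *Pcdhgc4*, 980 of 2219 at *Pcdhgb7* and 556 of 2049 at *Pcdhgc3*. The last of these, with 27.1% of its covered bases shared by all lists, was the least alike among the 7 first exons with a peak in every list, and *Pcdhga12*, with 71.7%, the most alike.

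The peaks differed in strength. Each peak carried a fold enrichment, the ratio of its signal to that nearby, and a −log10 q, where q is a p-value adjusted for the number of tests, and both were written by the peak caller. *Pcdhac2* had the strongest q-values of the family in CGE, LGE and CTX, with a −log10 q of 28.1 in CTX, 17.3 in LGE and 17.2 in CGE, against 6.62 in MGE, where *Pcdhgc5* stood at 7.82. Its peaks ranked at the 67.9th percentile of all peaks by q in the MGE list and the 86.6th in the CTX list. *Pcdhac1* had the highest fold enrichment of the clusters in CGE (3.86), LGE (4.09) and CTX (3.95), and in MGE its 3.43 was second to 3.59 at *Pcdhga12*. Both alpha genes, and *Pcdhgc3* of the gamma cluster, stood above their list's median fold enrichment in every list. This median was 2.99 in MGE, 2.98 in LGE, 2.71 in CGE and 2.73 in CTX.

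The gamma peaks ranged more widely in q-value relative to their lists. *Pcdhgc5* had a −log10 q of 7.82 in MGE, 7.997 in LGE, 8.51 in CGE and 3.23 in CTX, against list medians of 3.38, 4.21, 4.61 and 3.81. *Pcdhgc4* passed its list's median in LGE alone, with 7.05, and had the lowest fold enrichment of the 8 first exons in every list, from 2.11 in CGE to 2.58 in LGE. *Pcdhgc3* lay between 1.92 (CTX) and 4.00 (LGE), and *Pcdhga12* between 1.67 (CTX) and 3.57 (CGE). Both genes stood below the list's median −log10 q in every list, as did *Pcdhac1* in MGE. *Pcdhgb7* lay between 1.59 (MGE) and 2.04 (CGE), and *Pcdhgb6* was weakest, at 1.41 in CGE and 1.31 in CTX, at percentiles 5.67 and 6.42 of all peaks of those lists. A q-value under 0.001 was reached by 18 of the 30 peaks, 5 in MGE, 6 in LGE, 4 in CGE and 3 in CTX. With these peaks alone, *Pcdhac2* and *Pcdhgc5* had a covered base in all 4 lists and *Pcdhac1* in CGE, LGE and CTX. *Pcdhga12*, which is not of the C type, had one in MGE, CGE and LGE. *Pcdhgc3* and *Pcdhgc4* had one in MGE and LGE, and *Pcdhgb6* and *Pcdhgb7* had none.

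**Figure D4:**
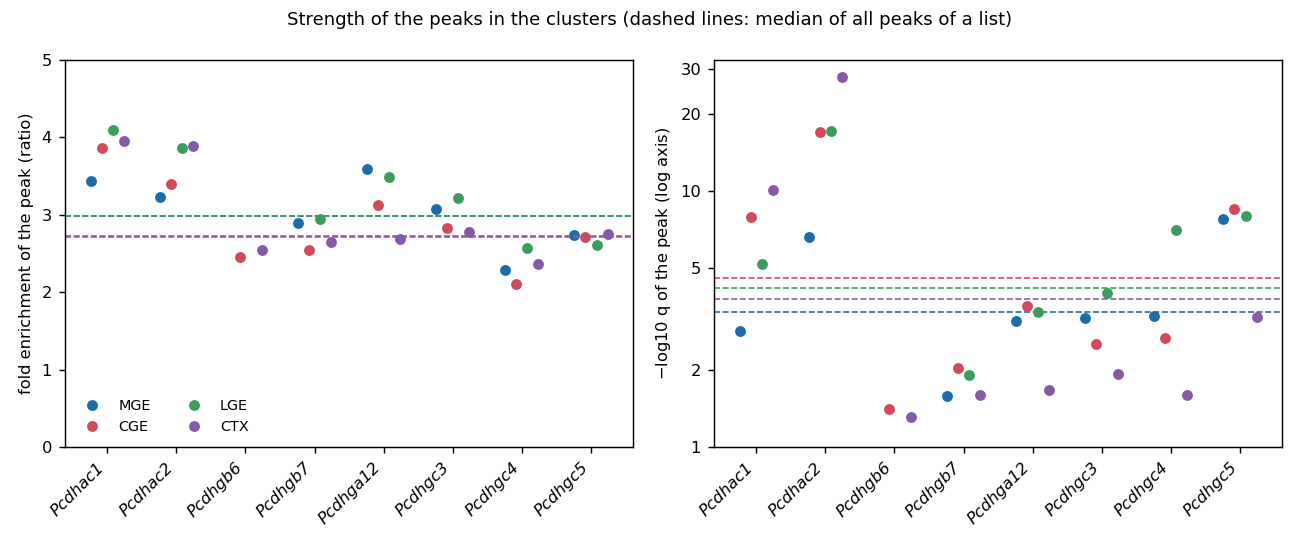
Fold enrichment (left, a ratio on a linear axis from 0) and −log10 q (right, on a log axis) of the H3K27me3 peaks at the 8 covered first exons, 1 point per list, with dashed lines at the median of all peaks of a list. *Pcdhac1*, *Pcdhac2* and *Pcdhgc3* lie above the medians of fold enrichment in every list. *Pcdhgb6*, *Pcdhgb7*, *Pcdhga12* and *Pcdhgc3* lie below the medians of −log10 q in every list where they have a peak, and *Pcdhac1* lies below it in MGE.

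Sequence properties of the first exons were set beside the coverage. Members of the clusters resemble each other, and a read that matches several of them cannot be placed with certainty, so the share of 50-base words of each first exon that occur once in the genome, on either strand, was counted. It was 100% for the 5 C-type genes, 88.1% to 100% for *Pcdhgb6*, *Pcdhgb7* and *Pcdhga12*, 73.4% to 89.8% for the 12 ordinary alpha genes, 88.0% to 100% for the beta genes and 82.1% to 100% for the 15 uncovered gamma first exons. Uncovered first exons with at least 95% unique words numbered 24 of 49, of which 13 were beta and 11 gamma genes. Covered first exons with this share numbered 7 of 8. The libraries were sequenced as paired reads of 50 bases, and this count takes each word alone, without the other read of its pair. The part of sequence similarity in the absence of peaks was not tested.

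CpG dinucleotides, the target of DNA methylation, were counted as the ratio of observed to expected number. This ratio was 0.712 to 0.733 in *Pcdhgb6*, *Pcdhgb7* and *Pcdhga12* and 0.345 to 0.721 (median 0.510) in the C-type genes. Among uncovered first exons it was 0.613 to 0.773 (median 0.678) in the ordinary alpha genes, 0.286 to 0.490 (median 0.386) in the beta genes and 0.361 to 0.780 (median 0.484) in the gamma genes. The ranges of covered and uncovered first exons overlapped, with the CpG-rich alpha exons uncovered and the C-type exons spread over most of the range. GC content had a median of 54.9% in the C-type genes, 53.1% in the ordinary alpha genes, 52.0% in the uncovered gamma genes and 46.0% in the beta genes.

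**Figure D5:**
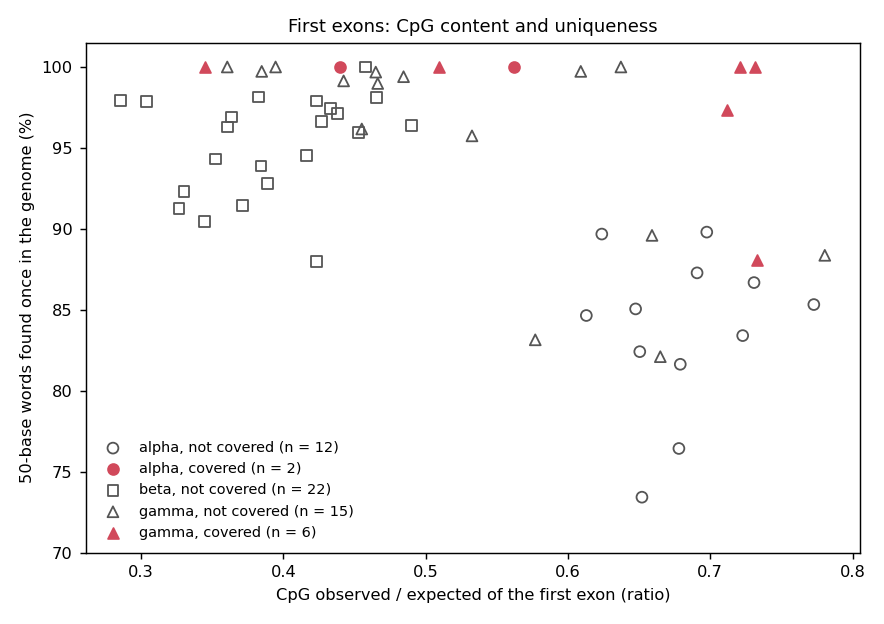
Ratio of observed to expected CpG dinucleotides (horizontal axis) and share of 50-base words found once in the genome (vertical axis, %, starting at 70) of the 57 first exons, by cluster (shape) and by coverage in any list (filled). The covered exons span 0.345 to 0.733 on the horizontal axis and overlap the uncovered ones, and the 12 uncovered alpha exons lie below 90%.

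Other genes of the same superfamily and genes that act on the clusters were looked at over the same window. The 12 non-clustered protocadherins, single genes elsewhere in the genome or beside the clusters, had a covered base for 10 genes in MGE, 9 in LGE, 10 in CGE and 9 in CTX, against the background shares given above, and 8 had one in all lists. Their mean coverage was 35.0% in MGE, 20.5% in LGE, 31.8% in CGE and 27.5% in CTX, compared with 4.11%, 4.54%, 4.93% and 4.91% over the 57 clustered genes. At least 50% of the window was covered for 3, 0, 3 and 2 of them. The windows of *Pcdh8* were covered to nearly the same extent in all regions, from 48.2% in LGE to 49.2% in CTX, and those of *Pcdh1* from 37.9% in MGE to 43.8% in CTX. *Pcdh11x* on the X chromosome was covered over 71.2% in MGE, 9.15% in LGE, 71.6% in CGE and 0% in CTX, and *Pcdh15*, a gene of hair cell tip links, over 100%, 36.6%, 100% and 71.4%. These were the 2 of 12 that differed by 50 points or more, against 1.53% of all genes and none of the 57 clustered genes. Of the clustered genes only *Pcdhac1* and *Pcdhac2* reached 50% of the window in any list, so no other could differ by 50 points.

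Among 19 genes whose products regulate the clusters or the modification itself, a covered base was found for 7 in MGE, 6 in LGE, 4 in CGE and 7 in CTX. These shares of 36.8%, 31.6%, 21.1% and 36.8% compare with 29.1%, 30.2%, 30.3% and 32.5% of all genes. None reached 50% of the window in any list, against 9.76% to 12.3% of all genes. *Ctcf*, whose product binds the protocadherin promoters, had no covered base. Of the cohesin subunit genes, *Rad21*, *Stag1* and *Stag2* had none either, whereas *Smc1a* was covered over 22.8% in MGE, 22.3% in CGE and 21.98% in CTX and not in LGE, and *Smc3* over 7.73% in MGE, 11.8% in LGE and 12.6% in CTX and not in CGE. *Dnmt3b*, a DNA methyltransferase that acts on protocadherin promoters in the embryo, was the most covered of them, with 34.4% in MGE, 27.2% in LGE, 39.7% in CGE and 32.1% in CTX. *Setdb1*, a histone H3 lysine 9 methyltransferase, lay between 10.0% (LGE) and 15.9% (CGE), and *Dnmt3a* between 8.33% (CTX) and 18.5% (CGE). *Smchd1*, which helps to keep the clusters silent, had 13.3% in LGE and no covered base elsewhere. The DNA demethylation gene *Tet3* had 9.55% in MGE, 10.4% in LGE and 15.4% in CTX. The Polycomb genes *Eed* and *Ezh2* had a covered base in 1 list each, over 7.53% of the window in MGE for *Eed* and 9.18% in CTX for *Ezh2*.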

How the data were processed

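The region named in its labels set the group of each H3K27me3 CUT&Tag sample (MGE 2, CGE 3, LGE 3, CTX 3). Reads had been aligned to GRCm38 (mm10) with Bowtie2, reads in blacklisted regions and PCR duplicates (Picard) removed, the replicates of each region merged with SAMtools, and broad peaks called with MACS on the merged reads. No mapping quality filter is described, and the version and control of MACS are not given in the sources used here. The deposited lists hold for each peak a fold enrichment (a ratio to local background) and the −log10 of the q-value, which the authors' peak caller wrote. The deposited score column and the p-values were not used. Merging weighs a sample by its reads, and a deeper merged library can yield more and weaker peaks. Read counts per peak are unknown, so no interval is given.

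Genes and first exons were taken from GENCODE M21 for GRCm38, with the 5′ end of the gene as reference. The first exon was that of the gene's protein-coding transcript with the longest coding sequence, so it can start after the 5′ end of the gene. Sequence properties came from the RefSeq copy of the assembly. Peaks on chromosomes 1 to 19 and X were used. The percentage of bases under peaks was computed for each window of 2 kb either side of the 5′ end, for first exons and for clusters, with Python 3.11.15 and numpy 2.4.6 and plots with matplotlib 3.10.9. The calculation was tested on simulated data with known coverage. The members and the lists of other genes were chosen with earlier results of these data known. All members with a covered base in any list were named, and the fixed lists of other genes were given as counts with values for those covered or beside a cluster. Values with 1 list per region have no test. Alternatives were a q-value under 0.001, joined peaks, lists of equal peak number or covered bases, other windows and other thresholds. No sequence of the members is printed.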

Additional observations from a re-analysis of the deposited data

How the results depend on the processing

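No paired analysis was possible because the authors called peaks on the merged samples of a region, and for the same reason no replicate could be left out in turn. A value was counted as unmoved within 1.5 times of that reported. The beta cluster had no peak under any setting of the peak lists. These settings remove peaks or join those under 3 kb apart, so none of them could place a peak there. Taking the 5′ end of any transcript, adding 10 kb on each side of a cluster or counting its variable part alone moved none of the 13, 12 and 12 results they were applied to. A q-value under 0.001 lowered the covered share of the alpha cluster in MGE to 0.812%, that of the gamma cluster to 2.51% in CGE and 1.11% in CTX, the mean window coverage to 3.28% in CGE and 2.06% in CTX, and the genes with a covered base to 4 in CGE and 3 in CTX, and it raised the genes that differed by 50 points from 0 to 1. Lists cut to the covered bases of MGE gave a gamma share of 1.45% in CGE and 1.11% in CTX, a mean coverage of 2.76% and 2.06%, and 3 genes with a covered base in each, *Pcdhac1*, *Pcdhac2* and *Pcdhgc5*. Lists of equal peak number gave 1.98% for the gamma share, 2.69% for the mean and 4 genes in CTX. Joining peaks under 3 kb apart gave 2 genes with 50% of the window in LGE and 1 gene differing by 50 points. The 2 kb upstream alone gave a mean of 0.116% in MGE, 0.518% in LGE, 1.64% in CGE and 0.834% in CTX, 2 (MGE) or 3 (other lists) genes with a covered base, 0 genes with 50% in MGE, LGE and CTX, and 1 gene differing by 50 points. The window of 1 kb either side gave 2 genes with 50% in MGE, CGE and LGE. A threshold of 25% of the window gave 5 genes in MGE, 7 in LGE, 6 in CGE and 5 in CTX, and one of 25 points gave 2 genes differing between lists. The first exon in place of the window, a setting chosen after seeing the data, gave 4 genes with 50% in MGE and CGE, 6 in LGE and 5 in CTX, and a mean of 6.83% in MGE, 7.41% in LGE and 7.80% in CTX. The values of *Pcdhgb6* and *Pcdhgb7* rest on peaks with weak q-values, and what a list with more reads would hold there is unknown.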

Other observations

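The protein-coding genes around the clusters that are no protocadherins were read over the same window of 2 kb either side of the 5′ end. There were 18 such genes between the clusters or within 200 kb of them, and a covered base was found for 3 in MGE, 4 in LGE, 3 in CGE and 6 in CTX. These shares of 16.7%, 22.2%, 16.7% and 33.3% compare with 29.1%, 30.2%, 30.3% and 32.5% of all genes. *Slc25a2* and *Taf7*, which lie between the beta and gamma clusters, had none in any list, and neither had *Zmat2*, the nearest gene before the alpha cluster. The readthrough models *Gm42416*, *Gm37013* and *Gm37388*, whose annotation runs from the alpha into the gamma cluster, had none at their 5′ ends. *Diaph1*, which encodes an actin nucleator and ends 1727 bases after the gamma cluster, had 8.50% of its window covered in CTX and none in the other lists. The window that *Hdac3*, a histone deacetylase gene, shares with the divergent gene *Rell2* was covered over 26.9% in MGE, 38.2% in LGE, 49.98% in CGE and 43.6% in CTX. *Tmco6* had 13.1% in LGE and 16.1% in CTX and *Fchsd1* had 7.73% in CTX, with none in the other lists. *Arap3* was covered over 37.3%, 55.5%, 63.8% and 56.3% in the same order. The *Hdac3* and *Arap3* windows were lowest in MGE and highest in CGE, as was the whole chromosome.

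Among the non-clustered protocadherins not described so far, *Pcdh9* had its window covered over 38.2% in MGE and 45.6% in CTX against 8.95% in CGE and 9.25% in LGE. *Pcdh18* had 24.6% in MGE and 31.4% in CGE and no covered base in LGE or CTX. *Pcdh12* had 16.7% in CTX and none elsewhere, *Pcdh7* lay between 5.88% (CGE) and 16.4% (LGE), and *Pcdh19* between 1.90% (CGE) and 9.70% (LGE). *Pcdh20* lay between 46.8% (LGE) and 58.2% (CTX), *Pcdh10* between 21.9% (CGE) and 27.98% (CTX), and *Pcdh17* had no covered base in any list. With 1 merged list per region these differences have no replicate check.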
